A study of Gallus gallus with 4 samples.

Results

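The genes described here are 7 genes of cholesterol synthesis, chosen by name: HMGCS1, IDI1, FDFT1, SQLE, LSS and DHCR7, which encode enzymes of the pathway, and SREBF2, which encodes its main transcription factor. All 7 were found by exact symbol among the 18973 rows of the expression table, each on a single row, and all 7 were among the 11626 rows that the authors tested. None of the 7 is a gene of cholesterol uptake, so uptake is described below from a separate list. Messenger RNA was sequenced from pectoralis (breast) muscle of Ross 708 broilers, a commercial line bred for fast growth, and of Isfahani native chickens, both at day 28 after hatching. There were 2 libraries per breed, each made by mixing RNA of 3 birds in equal parts, which gives 6 birds per breed; the labels give no treatment, sex, flock or batch. The values are the authors' FPKM, fragments scaled by transcript length and library size, a level per length that can be compared between genes. The table gives 1 FPKM value per breed, under the names Commercial and Native; Native matches the Isfahani label, and Commercial is read here as Ross 708, the remaining breed.

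Animal cells build cholesterol from acetyl-CoA in a long chain of steps, first through mevalonate to the isoprenoid farnesyl diphosphate, then through squalene and lanosterol to the finished sterol. The SREBF2 protein, SREBP-2, is held in the endoplasmic reticulum while sterols are plentiful, and when they fall it is cut and carried to the nucleus, where it raises transcription of genes of synthesis and of lipoprotein uptake. Muscle needs cholesterol for the surface membrane and its tubular system, and the early part of the pathway also feeds the making of ubiquinone, dolichol and protein prenyl groups. The roles given below are those known from mammals.

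SQLE rose in Ross 708 muscle, and it was the only 1 of the 7 genes to pass the authors' test. Its level was 5.66 FPKM in Ross 708 and 2.19 FPKM in Isfahani, a 2.59-fold difference. The values of HMGCS1, IDI1, LSS, DHCR7 and SREBF2 were also higher in Ross 708, by 1.28-fold to 1.86-fold, without passing the test. FDFT1 stood apart in direction, with the lower value in Ross 708, and did not pass the test either. A gene was called when its q-value (a p-value adjusted over all tested rows) in the authors' deposited table was at or under 0.05. The smallest p in the authors' deposited table was 5e-05 and the smallest q 0.00245. Genes given below with that q are tied at the smallest value and are not ranked by it. Among all tested rows, 5.21% were called, 3.07% as higher and 2.14% as lower in Ross 708, against 1 of 7 and 0 of 7 of these genes. Among the 6687 tested rows with a mean level within the span of these genes, 3.92 to 79.01 FPKM, 5.65% were called. No test of the count was made.

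**Figure D1:**
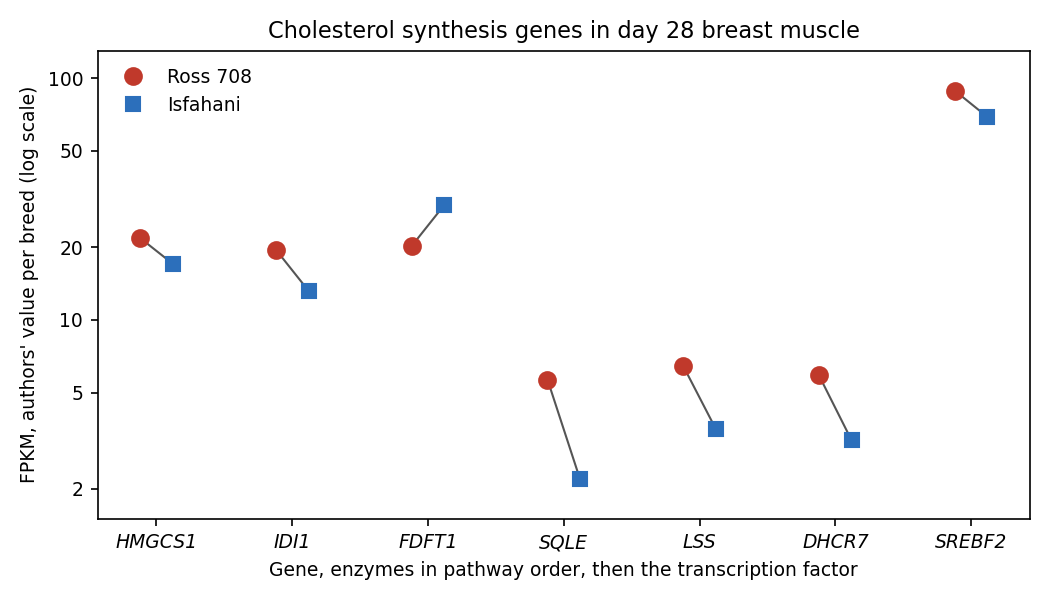
Level of each gene in FPKM on a log axis, with the authors' single value for Ross 708 (circle) and for Isfahani (square) joined by a line; no error bars can be drawn because there is 1 value per breed. All lines but 1 slope down to the right, since Ross 708 had the higher value; the line of FDFT1 slopes up, with 20.2 FPKM in Ross 708 and 29.9 FPKM in Isfahani.

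The breed values carry no SD and no n, because no value per library was used here, and replicate spread was available to the authors' test alone. Separate flocks are not mentioned in the labels, and the p-values therefore describe no more than these 4 pools. Sequencing depth is unknown. Low values showed no steps of a single read, but each breed value merges 2 libraries, so such steps need not appear. Desmin (DES), a filament protein of muscle, stood at 1917 FPKM in Ross 708 and 1971 FPKM in Isfahani. Its locus overlaps those of DNPEP and SPEG. Parvalbumin (PVALB), a calcium buffer of fast fibres, stood at 109 and 85.98 FPKM, and myoglobin (MB) at 17.2 and 19.3 FPKM, in the same order. DES, PVALB and MB were not called, while the myosin heavy chain genes MYH1A and MYH1D rose in Ross 708. The skeletal actin gene ACTA1 and the fast troponin genes TNNT3, TNNI2 and TNNC2 have no valid estimate, because the authors' software skipped them for too many fragments (status HIDATA), and CKM, MYLPF, MYH1B, ATP2A1 and RYR1 were matched to no row. In whole tissue, fewer cells of a type and less RNA per cell cannot be told apart.

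In the mevalonate part of the pathway, HMGCS1 makes HMG-CoA, an early intermediate on the way to mevalonate. HMGCS1 (build galGal5, as for all loci here, chromosome Z, 13501487 to 13524248) stood at 21.8 FPKM in Ross 708 and 17.1 FPKM in Isfahani. The log2 ratio was 0.34, taken on the log2 scale after adding 1 FPKM to each breed's value; positive means higher in Ross 708, and the change of low genes is understated. It was not called, with p = 0.327 and q = 0.709 in the authors' deposited table. NIM1K, a kinase gene, is listed with the very same locus, which may make the split of fragments between both rows less certain. Several genes can share a listed locus, so these coordinates need not be those of HMGCS1 alone.

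IDI1 converts isopentenyl diphosphate into its reactive isomer, which starts the chain of isoprenoid building blocks. IDI1 (chromosome 2, 10368355 to 10373444) stood at 19.5 FPKM in Ross 708 and 13.2 FPKM in Isfahani, a log2 ratio of 0.53. In the authors' deposited table its p was 0.0444 and its q 0.274, so it was not called. HMGCS1 and IDI1 had like levels within each breed: HMGCS1 was 1.12 times IDI1 in Ross 708 and 1.29 times in Isfahani.

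FDFT1, squalene synthase, joins farnesyl diphosphate into squalene and so commits it to sterols. FDFT1 (chromosome 3, 106985672 to 106996809) stood at 20.2 FPKM in Ross 708 and 29.9 FPKM in Isfahani, a log2 ratio of -0.54, or 1.48-fold higher in Isfahani. The difference was not called, with p = 0.0357 and q = 0.244 in the authors' deposited table. Of all tested rows, 10.7% had a smaller ratio than FDFT1. A row without a gene symbol, ENSGALG00000027596, has the same locus and stood at 0.59 FPKM in Ross 708 and 1.35 FPKM in Isfahani.

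SQLE, squalene epoxidase, carries out the next step and is regarded as a control point of the sterol part of the pathway. SQLE (chromosome 2, 138265009 to 138280707) had a log2 ratio of 1.06, and in the authors' deposited table a log2 fold change without pseudocount of 1.37, with p = 0.00025 and q = 0.00917. Of the 11626 tested rows, 276 (2.37%) had a larger ratio. Its level lay above 44.4% of tested rows in Ross 708 and above 23.7% of tested rows in Isfahani. No other row overlaps its locus. In each breed SQLE had the lowest level of the 7 genes.

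LSS, lanosterol synthase, closes the epoxide of squalene into the ring system of sterols. LSS (chromosome 7, 6910308 to 6920391) stood at 6.44 FPKM in Ross 708 and 3.53 FPKM in Isfahani, a log2 ratio of 0.71 and a 1.82-fold difference. It missed the threshold, with p = 0.0062 and q = 0.0879 in the authors' deposited table.

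DHCR7 reduces 7-dehydrocholesterol to cholesterol, and its substrate is also the precursor of vitamin D. DHCR7 (chromosome 5, 1673649 to 1680648) stood at 5.88 FPKM in Ross 708 and 3.17 FPKM in Isfahani, a log2 ratio of 0.72 and a 1.86-fold difference. It was not called, with p = 0.0148 and q = 0.150 in the authors' deposited table. The levels of LSS and DHCR7 kept nearly the same proportion, LSS being 1.09 times DHCR7 in Ross 708 and 1.11 times in Isfahani.

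SREBF2 (chromosome 1, 49350308 to 49368664) was the most abundant of the 7 transcripts, at 88.9 FPKM in Ross 708 and 69.2 FPKM in Isfahani. Its log2 ratio was 0.36, and it was not called (p = 0.19, q = 0.564 in the authors' deposited table). Its level lay above 93.7% of tested rows in Ross 708 and above 91.4% in Isfahani. The messenger level says nothing of how much SREBP-2 protein was cut and active. The microRNA gene MIR33A, which lies inside SREBF2 and is known to restrain cholesterol export, has a row with the same locus that is listed at 0 in both breeds, and libraries of this kind are not made to capture mature microRNAs.

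Ordered by level, the genes ran SREBF2, HMGCS1, FDFT1, IDI1, LSS, DHCR7 and SQLE in Ross 708. The order in Isfahani was the same except that FDFT1 stood above HMGCS1. From the highest to the lowest gene the span was 15.7-fold in Ross 708 and 31.6-fold in Isfahani. The enzymes among these genes formed a group between 13.2 and 29.9 FPKM (HMGCS1, IDI1 and FDFT1) and a group between 2.19 and 6.44 FPKM (SQLE, LSS and DHCR7) in both breeds. Other synthesis genes lay between these groups, among them LBR at 11.8 FPKM in Ross 708 and 10.8 FPKM in Isfahani. MVK also lay between, at 6.97 and 6.48 FPKM in the same order, with a log2 ratio of 0.09. The 3 genes of the lower group had the 3 largest ratios, 1.06, 0.72 and 0.71. Which neighbours in this order differ beyond replicate error cannot be said, because there is no spread.

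The contrast between FDFT1 and SQLE, which act one after the other, was the widest among these genes. They were picked for this, having the lowest and the highest ratio. The level of FDFT1 was 3.57 times that of SQLE in Ross 708 and 13.7 times in Isfahani. Summed over the 6 enzymes, the level was 79.5 FPKM in Ross 708 and 69.03 FPKM in Isfahani, and FDFT1 made up 25.4% of the sum in Ross 708 and 43.3% in Isfahani. Without FDFT1 the other 5 enzymes summed to 59.3 FPKM in Ross 708 and 39.1 FPKM in Isfahani. Leaving out the only enzyme with the lower value in Ross 708 was bound to widen the difference. As for any pair of genes, the proportion between FDFT1 and SQLE does not depend on how the breeds were scaled to each other. It has no spread, and FDFT1 was not called.

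At an unadjusted p at or under 0.05 in the authors' deposited table, 4 of the 7 genes had the higher value in Ross 708 (SQLE, LSS, DHCR7 and IDI1) and FDFT1 had the lower. Of all tested rows, 17% reached that p in either direction. The median log2 ratio of the 7 genes was 0.53, and that of all tested rows was -0.034. Of all tested rows, 46.5% had the higher value in Ross 708, against 6 of the 7 genes. Over the 4 other scalings tried that share ran from 36.8% to 55.5%. None of the 7 genes changed sign, and none could, since each scaling shifted ratios by less than their smallest ratio in size. The 6 enzymes are known targets of SREBP-2 in mammals, and the 7 genes were chosen with earlier results of these data known, so these shares are a description and are not independent evidence.

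**Figure D2:**
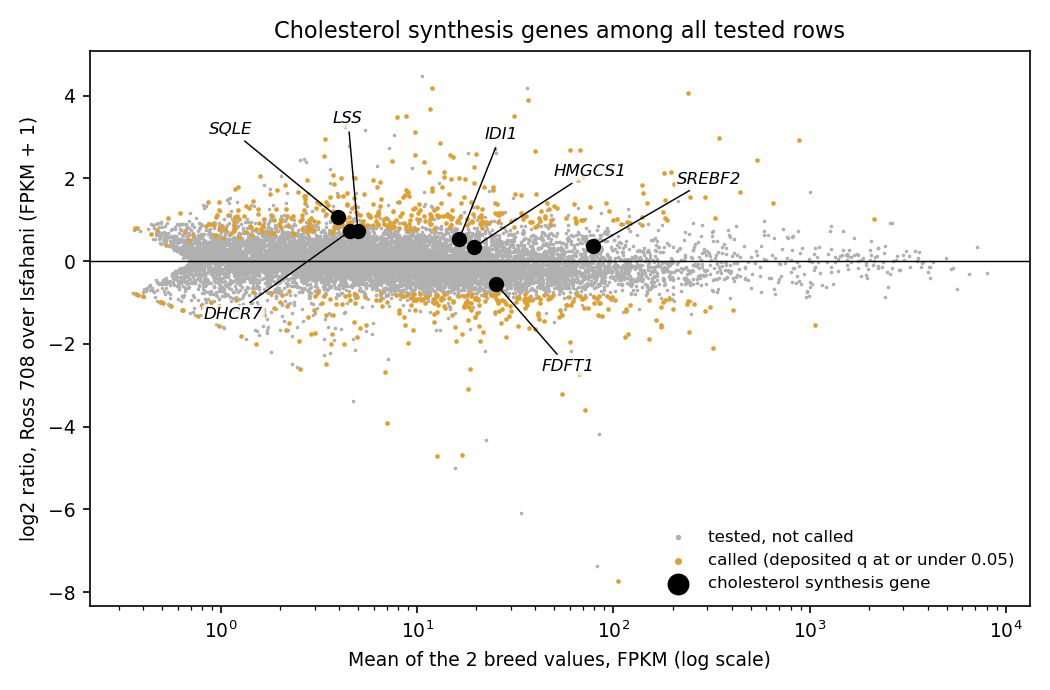
Log2 ratio of Ross 708 over Isfahani on FPKM + 1 against the mean of both breed values in FPKM (log axis), for the 11626 tested rows, of which the 606 called rows are coloured. The cholesterol synthesis genes (black) have ratios between 1.06 (SQLE) and -0.54 (FDFT1); some grey points have far larger ratios and were still not called.

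The rest of the synthesis pathway was read from 2 lists, the mevalonate stage and the sterol stage, which include the 6 enzymes. Of the 17 tested genes of both lists reported here, SQLE rose in Ross 708, none fell and 16 were not called. Over all tested rows, 3.07% were called higher and 2.14% lower in Ross 708. The value was higher in Ross 708 for 15 of 17 genes as deposited and for 13 of 17 when both breeds were rescaled to the same sum of all rows, where MVK and LBR changed sign. The median log2 ratio of the 17 was 0.46. Leaving out the 6 enzymes already described, 10 of 11 tested genes had the higher value in Ross 708 as deposited. None was called, and their median log2 ratio was 0.43. MVK and LBR are both among these 11. Of all tested rows, 46.5% had the higher value in Ross 708 as deposited and 36.8% when rescaled to the same sum of all rows.

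ACAT2, the thiolase that precedes HMGCS1, stood at 12.03 FPKM in Ross 708 and 6.39 FPKM in Isfahani (q = 0.0833 in the authors' deposited table). MVD, the decarboxylase that yields isopentenyl diphosphate, stood at 39.3 FPKM in Ross 708 and 28.3 FPKM in Isfahani (q = 0.372 in the authors' deposited table). PMVK, which phosphorylates phosphomevalonate, stood at 11.6 FPKM in Ross 708 and 7.14 FPKM in Isfahani, with q = 0.417 in the authors' deposited table. CYP51A1, which demethylates lanosterol, stood at 9.67 FPKM in Ross 708 and 5.62 FPKM in Isfahani. Its q was 0.708 in the authors' deposited table, and its locus overlaps that of AKAP9. Beside FDFT1, the only 1 of the 17 genes with the lower value in Ross 708 was GGPS1, at 23.3 FPKM against 31.7 FPKM in Isfahani (q = 0.481 in the authors' deposited table). GGPS1 makes geranylgeranyl diphosphate, and its product leaves the path to cholesterol. FDFT1 and GGPS1 both draw on farnesyl diphosphate. FDPS, which makes that intermediate, shares a row with NUP210L, so its own level is not known; the joint row stood at 35.2 FPKM in Ross 708 and 34.2 FPKM in Isfahani. TM7SF2 and EBP of the sterol stage were matched to no row.

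**Figure D3:**
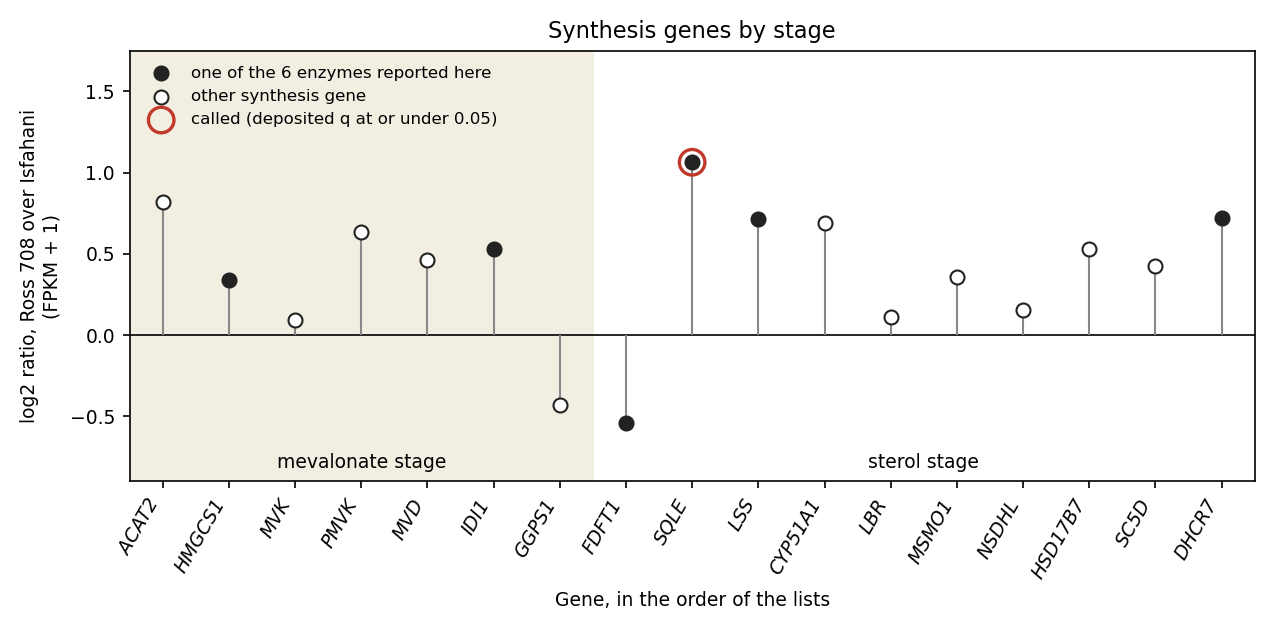
Log2 ratio of Ross 708 over Isfahani on FPKM + 1 for 17 tested synthesis genes, grouped by stage. Filled points are the 6 enzymes described gene by gene, open points the other 11, and a ring marks the called gene SQLE; FDFT1 and GGPS1 are the points below 0.

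Genes of sterol sensing had values on both sides, 6 higher and 7 lower in Ross 708 as deposited; SREBF1 and MBTPS1 changed sign when the breeds were given one sum of all rows, and ERLIN1 did so under the other scalings tried. Of 13 tested genes in this list, SREBF2 included, INSIG1 rose, none fell and 12 were not called. The shares over all tested rows were 3.07% called higher and 2.14% called lower in Ross 708. INSIG1, an anchor that keeps SREBP in the endoplasmic reticulum and is itself switched on by SREBP in mammals, stood at 159.9 FPKM in Ross 708 and 83.6 FPKM in Isfahani. Its log2 ratio was 0.93 and its q 0.0332 in the authors' deposited table. INSIG2, its paralog, stood at 16.7 FPKM in Ross 708 and 20.7 FPKM in Isfahani (q = 0.638 in the authors' deposited table).

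SREBF1, the paralog of SREBF2 that acts mainly on fatty acid synthesis, stood at 52.3 FPKM in Ross 708 and 52.01 FPKM in Isfahani. Its q was 0.995 in the authors' deposited table, and 2 other rows overlap its locus. TRIB1, a pseudokinase linked to lipid levels, stood at 16.6 FPKM in Ross 708 and 10.3 FPKM in Isfahani (q = 0.155 in the authors' deposited table). FBXW7, which marks nuclear SREBP for breakdown, stood at 5.21 FPKM in Ross 708 and 6.93 FPKM in Isfahani, and ERLIN2, which takes part in protein breakdown at the endoplasmic reticulum, at 39.96 and 50.1 FPKM in the same order. In the authors' deposited table their q-values were 0.519 and 0.593. SCAP, the escort of SREBP, was matched to no row. The list's median log2 ratio was -0.0017 as deposited. It became 0.044 when both breeds were brought to a common sum without HIDATA rows. When all ratios were centred on their median it was 0.049, so it has no steady sign. With the same sum of all rows it was -0.12, and without genes whose locus overlaps another row it was -0.16. Over all tested rows the median was -0.034 as deposited, 0.0071 without HIDATA rows, 0.017 on centring and -0.15 with equal sums of all rows.

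Among genes of uptake and intracellular transport, CD36 rose, none fell and 8 of 9 tested genes were not called. Over all tested rows, 3.07% were called higher and 2.14% lower in Ross 708. CD36, a scavenger receptor that also carries fatty acids into muscle, stood at 16.4 FPKM in Ross 708 and 6.92 FPKM in Isfahani (log2 ratio 1.14, q = 0.00245 in the authors' deposited table). VLDLR, a receptor for triglyceride-rich particles, stood at 34.7 FPKM in Ross 708 and 48.6 FPKM in Isfahani. Its q was 0.365 in the authors' deposited table, and 1 other row overlaps its locus. NPC2, a lysosomal carrier of cholesterol, stood at 59.2 FPKM in Ross 708 and 42.9 FPKM in Isfahani, MYLIP, a ligase that removes lipoprotein receptors, at 16.1 and 11.7 FPKM, and STARD3, a late endosomal carrier, at 9.56 and 12.6 FPKM, in the same order. In the authors' deposited table their q-values were 0.385, 0.395 and 0.623. The list's median log2 ratio was 0.23 as deposited and 0.098 when the breeds were given one sum of all rows. It was 0.12 when rows that name a second gene were also counted, and 0.34 without genes whose locus overlaps another row. Over all tested rows the median was -0.034 as deposited and -0.15 with the breeds given the same sum of all rows.

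The list of efflux and esterification genes had its median on the other side, at a log2 ratio of -0.28 over 13 tested genes. That median was -0.18 when scaled to the upper quartile of tested rows and -0.42 when the breeds were given one sum of all rows. Under the same scalings the median over all tested rows was 0.053 and -0.15, and as deposited it was -0.034. PLTP, a phospholipid transfer protein, rose to 8.62 FPKM in Ross 708, against 2.11 FPKM in Isfahani (log2 ratio 1.63, q = 0.00245 in the authors' deposited table). No gene of the list fell and 12 were not called, while 3.07% of all tested rows were called higher and 2.14% lower in Ross 708. NR1H3, the oxysterol receptor LXR alpha, stood at 29.8 FPKM in Ross 708 and 49.1 FPKM in Isfahani, and RXRA, its partner, at 51.2 and 94.04 FPKM in the same order. In the authors' deposited table their q-values were 0.0959 and 0.0609, above the threshold. The locus of RXRA is overlapped by 1 other row. CH25H, which makes 25-hydroxycholesterol, stood at 5.74 FPKM in Ross 708 and 1.67 FPKM in Isfahani (q = 0.0651 in the authors' deposited table). CYP27A1, another sterol hydroxylase, stood at 7.46 FPKM in Ross 708 and 15.1 FPKM in Isfahani, with q = 0.531 in the authors' deposited table and a locus that overlaps PRKAG3. The cholesterol exporter ABCA1 stood at 4.12 FPKM in Ross 708 and 2.66 FPKM in Isfahani (q = 0.422 in the authors' deposited table). Its locus is also overlapped by 1 other row.

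In the isoprenoid branch, which uses mevalonate products for other ends, RABGGTB fell, none rose and 8 of 9 tested genes were not called. The shares over all tested rows were 2.14% called lower and 3.07% called higher in Ross 708. RABGGTB, a subunit of the enzyme that attaches geranylgeranyl groups to Rab proteins, stood at 24.6 FPKM in Ross 708 and 46.5 FPKM in Isfahani (log2 ratio -0.89, q = 0.0285 in the authors' deposited table); 2 other rows overlap its locus. NUS1 and DHDDS, the subunits of the dolichol-making transferase, stood at 35.8 and 10.3 FPKM in Ross 708 and at 24.9 and 7.75 FPKM in Isfahani. PDSS1 and COQ2, of ubiquinone synthesis, stood at 8.15 and 7.23 FPKM in Ross 708 and at 13.04 and 10.1 FPKM in Isfahani. The q-values of these 4 genes in the authors' deposited table ran from 0.316 for NUS1 to 0.688 for PDSS1. The locus of PDSS1 is overlapped by 3 other rows. The median log2 ratio of the list was -0.26 as deposited and -0.16 when scaled to the upper quartile of tested rows. It was -0.11 without genes whose locus overlaps another row, and -0.39 when the breeds were given one sum of all rows. The value was higher in Ross 708 for 4 of 9 genes as deposited. It was higher for 2 of 9 when the breeds were given the same sum of all rows, where ICMT and ZMPSTE24 changed sign. Over all tested rows the share with the higher value went from 46.5% to 36.8% under that scaling, and the median from -0.034 to -0.15.

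**Figure D4:**
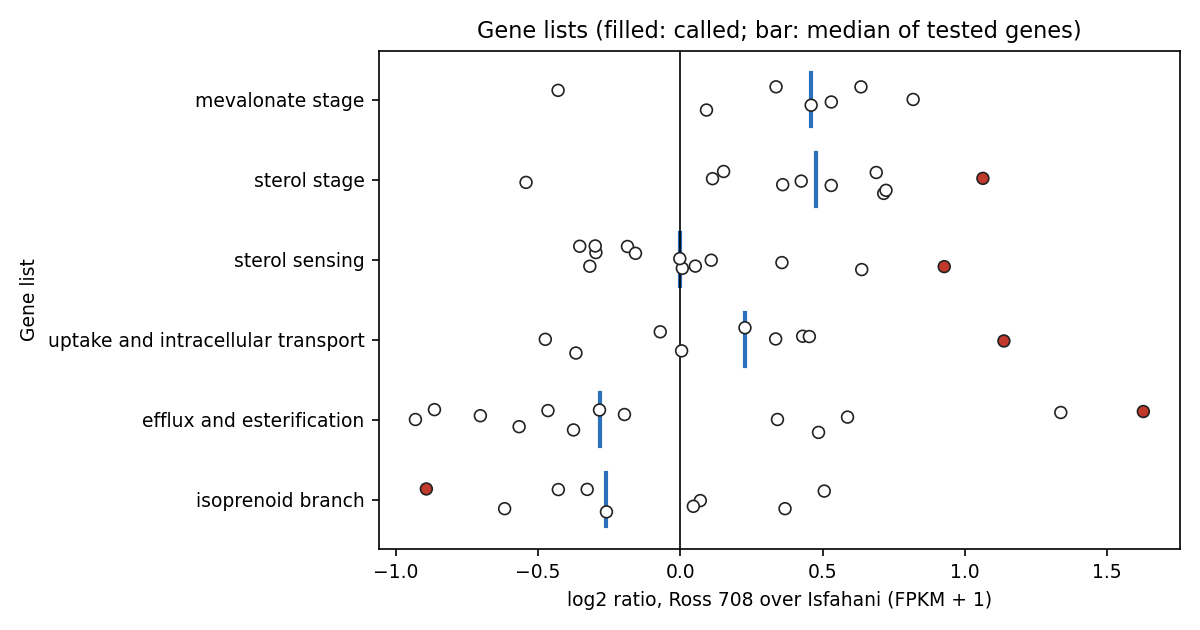
Log2 ratio of Ross 708 over Isfahani on FPKM + 1 for every tested gene of 6 lists, with called genes filled and a bar at each list's median. The medians of the mevalonate and sterol stages are 0.46 and 0.48, that of sterol sensing is near 0, and those of efflux and esterification and of the isoprenoid branch are -0.28 and -0.26; points are spread vertically at random so that they do not overlap.

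Some marker genes of other cell types differed in the same pools. Over all tested rows, 3.07% were called higher and 2.14% lower in Ross 708. Of 10 tested adipocyte markers, 5 rose, none fell and 5 were not called, with a median log2 ratio of 1.63. Their summed level over all 11 matched markers was 446 FPKM in Ross 708 and 132 FPKM in Isfahani. Most of each sum was FABP4, one of the 5 that rose, at 319.8 FPKM in Ross 708 and 86.7 FPKM in Isfahani. PLIN1, which had the largest ratio of the list, stood at 22.4 and 0.844 FPKM in that order. The value was higher in Ross 708 for 8 of the 10 and lower for 2, GPAM and FASN. Of 12 tested leukocyte markers 1 rose, of 11 fibroblast and matrix markers 5 rose, of 6 smooth muscle markers 2 rose and of 9 endothelial markers none rose, and none of these fell, with median log2 ratios of 0.58, 0.72, 0.45 and 0.35. Their summed levels were 3127, 3892, 85.2 and 73.3 FPKM in Ross 708 and 2414, 2227, 58.2 and 52.9 FPKM in Isfahani, with COL1A1 listed at 0 in both breeds. Most of the leukocyte sum was CD74, at 2734 FPKM in Ross 708 and 2138 FPKM in Isfahani. CD74 was not called, and 14 other rows overlap its locus. Of 10 immediate early and heat shock genes, which can respond to handling, 8 rose and none fell, with a median log2 ratio of 1.97 and a summed level of 1718 FPKM in Ross 708 and 582 FPKM in Isfahani. None of the 3 tested nerve markers was called (median log2 ratio -0.20), and no erythroid marker was tested, the globin genes HBAA, HBAD and HBZ being listed at 0 in both breeds. FASN, the fatty acid synthase, stood at 10.6 FPKM in Ross 708 and 11.2 FPKM in Isfahani. Its q was 0.965 in the authors' deposited table, and its locus overlaps those of GPS1 and RFNG. SCD, like FASN in the adipocyte list, rose to 13.2 FPKM in Ross 708, against 1.67 FPKM in Isfahani. The log2 ratio of SCD was 2.41 and its q 0.00245 in the authors' deposited table. The part of these cell types in the levels of SQLE and the other synthesis genes was not tested.

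The authors also deposited term enrichment, in 3 sheets named for a breed and a direction. SQLE was the only 1 of the 7 genes named there, in 20 of 1095 terms of a sheet named as down in Ross. Of the 271 genes of that sheet, 269 were called higher and 0 lower in Ross 708 in the authors' deposited table. Of these 20 terms, 10 had a Benjamini-adjusted p at or under 0.05 in the authors' deposited table. So did 474 of all 1095 terms of that sheet, a like share. Among the 10 were small molecule biosynthetic process (23 genes, 2.95-fold, Benjamini-adjusted p = 0.000342) and lipid biosynthetic process (24 genes, 2.39-fold, Benjamini-adjusted p = 0.00357). In the authors' deposited table, cholesterol biosynthetic process held 4 genes, SQLE and INSIG1 among them, enriched 5.14-fold, with p = 0.0423 and a Benjamini-adjusted p of 0.271, so it did not pass. The pathway sheet and the sheet whose genes were all called higher in Isfahani named none of the 7. Nearly all genes in the 3 sheets were called genes, so the naming of SQLE alone restates its call.

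Neighbouring genes on the chromosome were read within 250 kb on either side of each of the 7 genes, a window chosen after the values were seen. Distances are between listed loci, which can cover several genes, so they need not be the exact gaps between the genes named. Of 79 tested neighbours 6 were called (7.59%, against 5.21% of all tested rows). SQLE lies 71.5 kb from MTSS1, a membrane and actin-binding protein gene that rose to 7.998 FPKM in Ross 708, against 3.93 FPKM in Isfahani (q = 0.0078 in the authors' deposited table). The genes RNF139, a sterol-responsive ubiquitin ligase, and TRIB1 are also within the window around SQLE. FDFT1 lies 170.5 kb from TDH, a threonine dehydrogenase gene that fell to 10.1 FPKM in Ross 708, against 133 FPKM in Isfahani (q = 0.00245 in the authors' deposited table). BLK, listed between the positions of TDH and FDFT1, stood at 2.80 FPKM in Ross 708 and 1.80 FPKM in Isfahani and was not called. HMGCS1 lies 82.2 kb from GHR, the growth hormone receptor gene, which fell to 32.04 FPKM in Ross 708, against 60.97 FPKM in Isfahani (q = 0.0078 in the authors' deposited table). LSS had 3 called neighbours, the collagen genes COL6A2, COL6A1 and COL18A1, all of which rose in Ross 708. Whether these neighbourhoods bear on the 7 genes was not tested.

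**Figure D5:**
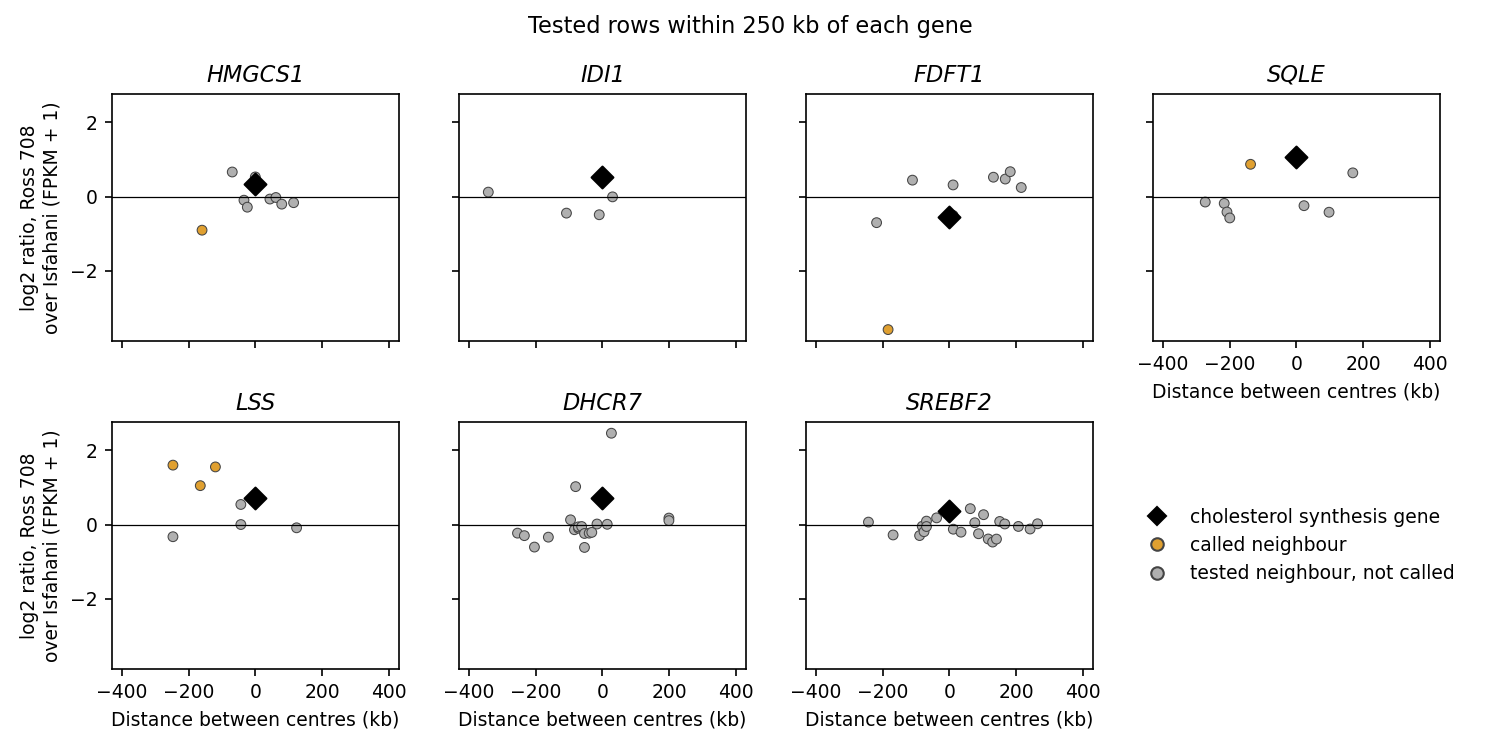
Log2 ratio of Ross 708 over Isfahani on FPKM + 1 for tested rows within 250 kb of each gene, against the distance in kb between row centres, which passes 250 kb for long neighbours. Diamonds are the 7 genes and coloured points the 6 called neighbours; the low point beside FDFT1 is TDH, at -3.59, and the rows that share the loci of HMGCS1 and FDFT1 lie partly or wholly under the diamonds.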

How the data were processed

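Breast muscle RNA was extracted with Trizol, pooled within a breed, and sequenced as paired 150-base reads, per the labels' protocols. The reads went through FastQC 0.11.5, Trimmomatic, HISAT2 (alignment) and the Cufflinks package 2.2.1, on galGal5, per the submitters' processing notes, with annotation and library scaling not given in the sources used here. Per the file headers, the authors' table holds FPKM per breed, a log2 fold change, a score (the test statistic, not used here), a p-value and a q-value. Benjamini-Hochberg adjustment of the deposited p-values over the 11626 tested rows (status OK) gave the deposited q-values to within 5.22e-07; 7307 rows were NOTEST, 39 HIDATA and 1 FAIL. The deposited enrichment sheets give gene numbers per term (another kind of count), fold enrichment as a ratio and p-values, per the file headers.

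No test of its own was made, because there is 1 value per breed; the planned limma fit on values per library could not be run. Ratios used a pseudocount of 1 FPKM. Symbols were matched exactly, and a repeated symbol took its row with the highest mean FPKM. Depth could not be recovered. Whole reads of a single library per breed would pile up untested low rows at few ratios. Of 2680 such rows above 0 in both breeds the fullest bin, 0.01 wide in log2 ratio, held 0.709%. Each breed value merges 2 libraries, so a pile-up need not appear, and this check cannot decide. Named genes are the 7 genes, every called gene of the 6 pathway lists (82 symbols) and a few fixed ones. Also named are the 4 uncalled genes with the largest ratios per list at 1 FPKM or more. GGPS1, INSIG2, MVK, LBR, FASN, single markers and the neighbours were named after their values were seen. No gene was named for a like pattern, since 1 value per breed gives none. The genes and lists were chosen with earlier results of these data known. Loci are printed in galGal5 as the authors' table has them, without a stated counting of the first base. Several genes can share a printed locus, so it need not be the span of the named gene alone. Some genes of the planned lists are not reported here and are in no list count. The planned promoter motif search was not run. Ratio and adjustment steps were tested on simulated data. Python 3.11.15, pandas 2.3.3 and matplotlib 3.10.9 were used.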

Additional observations from a re-analysis of the deposited data

How the results depend on the processing

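All 7 genes kept the direction of their ratio under each of the 6 other ratio settings tried: SQLE ran from 0.96 to 1.37, DHCR7 from 0.62 to 0.89, LSS from 0.61 to 0.87, IDI1 from 0.41 to 0.63, SREBF2 from 0.23 to 0.46, HMGCS1 from 0.21 to 0.44 and FDFT1 from -0.67 to -0.44. No other outcome was possible, since a change of pseudocount cannot turn a sign. The shifts from scaling were all smaller than the smallest ratio in size, 0.34 for HMGCS1. Rescaling to the sum of all rows shifted ratios, before the pseudocount, by -0.13, mainly through rows of status HIDATA that have a value in Ross 708 and are listed at 0 in Isfahani; without those rows the shift was 0.049, and scaling to the upper quartile moved ratios by 0.11. At a q-value threshold of 0.1, 2 of the 7 genes were called higher (SQLE and LSS), against 872 of the 11626 tested rows called in either direction. At an unadjusted p of 0.05, 4 of the 7 were higher and 1 lower, against 17% of all tested rows in either direction. At a q-value threshold of 0.01 sterol sensing had 0 genes called higher and the isoprenoid branch 0 called lower, and without overlapping loci the isoprenoid branch also had 0. The sterol sensing median turned to 0.044 without HIDATA rows in the sum and to 0.049 on centring. Over the whole table, 606 rows were called, 317 at a q-value of 0.01, 872 at a q-value of 0.1 and 1979 at an unadjusted p of 0.05. When a ratio of 1 or more in size on the log2 scale was also asked, 359 were called. The causes were not tested beyond the thresholds themselves. The settings with overlapping loci left out, with joint rows counted and without HIDATA rows were added after the data were seen. No paired analysis was possible because the table gives 1 value per breed and none per replicate, and for the same reason leaving out each replicate was not run.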
